A study of Ipomoea batatas with 28 samples.

Results

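Early storage roots of sweet potato (Ipomoea batatas, wild type) were compared with fibrous roots. The early storage roots were those of stages S14 (10 mm in diameter) and S16 (15 mm), and the fibrous roots those of stages S4 (1.5 mm) and S8 (2 mm), each stage with 4 libraries from separate biological replicates. These are 16 of the 28 libraries of the series, taken by their stage labels. The other 12 libraries came from pencil roots (S10, 3.5 mm, and S12, 5 mm) and from the thickest storage roots (S20, 25 mm). S20 was left out of the comparison so that late changes do not enter it, and the pencil and S20 libraries entered no mean of the comparison. They show levels at other diameters. They took part in the filter on low values, the rescaling of libraries, the estimate of the spread and the mean levels over all libraries. RNA came from the middle section of the root, a mixture of tissues, so more cells of a type and more RNA per cell cannot be told apart.

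The sweet potato storage root forms when a thin root stops elongating and thickens. Its cambium and additional, anomalous cambia then produce parenchyma that fills with starch and storage protein, whereas the stele of a root that stays fibrous becomes lignified. Fibrous roots take up water and minerals, and storage roots are sinks for sucrose from the leaves. The rows of the deposited table carry ID numbers, and 0 of the 99697 IDs matched the 175826 genes of the reference table used here. The results therefore concern numbered transcripts, not known genes, and the markers that define each root type were not checked. Values are TPM, a level corrected for transcript length and scaled to the same total in each library, so each is a share of a library. TPM keeps no read depth, and the spread between libraries was the only measure of error.

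Early storage roots had more transcripts above a minimum level, and their 1000 most abundant transcripts held less of the library. At least 1 TPM was reached by 59447 ± 1058 IDs in early storage roots and by 50817 ± 2321 in fibrous roots (SD, n = 8 each). The lowest early storage library, with 57957 IDs, lay above the highest fibrous library, with 53493. The difference of 8630 IDs had an exact permutation p of 0.000155 (two-sided), the smallest that 12870 divisions of the libraries can give, and of 0.000777 after Benjamini-Hochberg adjustment over 5 library measures. The count used deposited TPM and was not repeated after rescaling of the libraries. Median-of-ratios scaling, described below, divided the early storage libraries by 1.10 to 1.29 and the fibrous libraries by 0.670 to 0.917. The part of this shift in the number of IDs at 1 TPM was not tested. Depth was unknown, and its part in the number of IDs detected was not tested.

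The 1000 most abundant IDs of each library held 33.8% ± 2.67 of the TPM in early storage roots and 43.1% ± 5.01 in fibrous roots (SD, n = 8 each; exact permutation, adjusted p = 0.0013). For the 100 most abundant IDs the difference, -4.92 percentage points, was not called (exact permutation, adjusted p = 0.0837). With 1000 IDs the classes overlapped, because the library of S14 replicate 5 reached 39.9% and the lowest fibrous library had 37.9%. For the 10 most abundant IDs alone the shares were 5.70% ± 2.90 in early storage and 7.31% ± 3.66 in fibrous roots, a difference within the spread between libraries (exact permutation, adjusted p = 0.442). That difference, -1.61 percentage points, was -2.59 without S14 replicate 5, -0.982 without S4 replicate 1 and -0.933 without S8 replicate 5, and it was not called in any of these. The 10 most abundant IDs of S14 replicate 5 held 12.6%, against 3.41% to 5.93% in the other 7 early storage libraries. IDs with the prefix MSTRG, which a transcript assembler writes for loci it builds from reads, held 10.3% ± 0.421 in early storage and 11.0% ± 0.220 in fibrous roots (SD, n = 8 each; exact permutation, adjusted p = 0.00117).

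**Figure D1:**
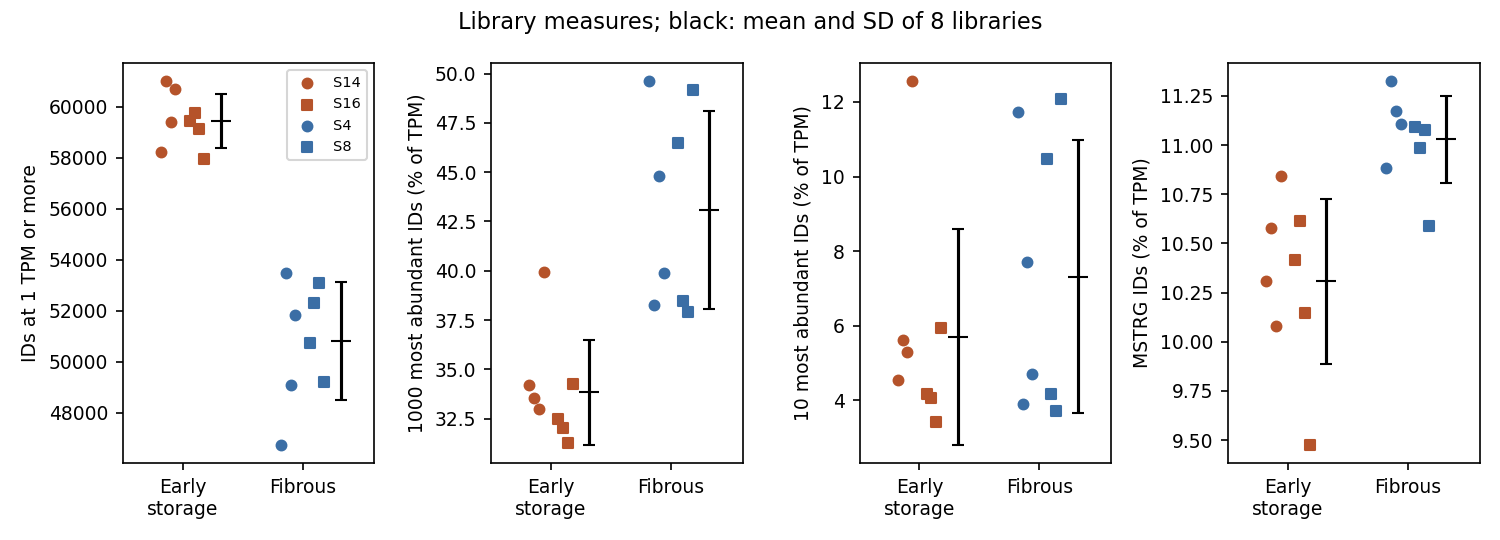
Values of 4 library measures in the 8 early storage and the 8 fibrous libraries, with circles for S14 and S4 and squares for S16 and S8, and the mean and SD of each class in black. The counts of IDs that reach 1 TPM do not overlap between the classes, while the share of the 10 most abundant IDs overlaps almost fully and has 1 high early storage library, at 12.6%.

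Replicates lay about as far from their stage mean in both classes. The root mean square distance over IDs was 0.511 ± 0.0317 in early storage and 0.533 ± 0.0928 in fibrous roots on the log2(TPM + 1) scale (SD, n = 8 each; exact permutation, adjusted p = 0.707, approximate because libraries of a stage share its mean). The library of S4 replicate 1 stood apart at 0.752, with the other fibrous libraries between 0.457 and 0.554. Without it the difference was 0.00895 in place of -0.0223, and after median-of-ratios scaling of all libraries it was -0.0886 with a call (exact permutation, adjusted p = 0.00272). The counts of calls are given below also without this library and without S14 replicate 5.

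The change between fibrous and early storage roots reached a large part of the transcriptome. Of 75757 IDs tested, 21982 (29.0%) were called, 15667 (20.7%) higher and 6315 (8.34%) lower in early storage roots. A call means a limma adjusted p under 0.05 and at least a 2-fold difference on the log2(TPM + 1) scale. The higher calls had a median log2 fold of 1.38 and the lower calls one of -1.67. Without S4 replicate 1 the counts were 14777 higher and 6550 lower, and without S14 replicate 5 they were 16267 and 6381.

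How many IDs went each way depended on how libraries were scaled. Over every ID tested the log2 fold had a median of 0.44, so the typical transcript took a larger share of the library in early storage roots. After median-of-ratios scaling, which aligns the IDs detected in every library, the split was 7377 higher (9.74%) and 9951 lower (13.1%). After quantile normalization, which gives every library the same distribution, it was 8491 higher (11.2%) and 9077 lower (12%). With the 2-fold threshold counted from the median fold, and the adjusted p kept, 7029 were higher and 9328 lower in deposited TPM. With a pseudocount of 5 there were 7872 calls, 4542 higher and 3330 lower, and with 0.1 there were 33044. Under all 3 scalings 7036 IDs were higher (9.29% of those tested) and 6282 were lower (8.29%). These 2 lists are described below, since their direction holds under each scaling by construction.

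At least 8-fold differences were called for 458 IDs higher (0.605%) and 763 IDs lower (1.01%) in early storage roots, and all of them were also called, at 2-fold or more, after both rescalings. The balance of these large changes turned with the pseudocount. A pseudocount of 0.1 gave 3175 rising and 2045 falling IDs, and a pseudocount of 5 gave 103 and 273. Lower IDs were the more frequent after median-of-ratios scaling (260 higher, 1337 lower) and quantile normalization (323 higher, 987 lower). Among the 458 and 763, 25 rose and 58 fell by a log2 fold of at least 5. In the band of 2-fold to 4-fold differences the deposited TPM gave 13169 higher and 4080 lower calls, but only 4559 of the higher ones were called under all 3 scalings, against 4047 of the lower ones.

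**Figure D2:**
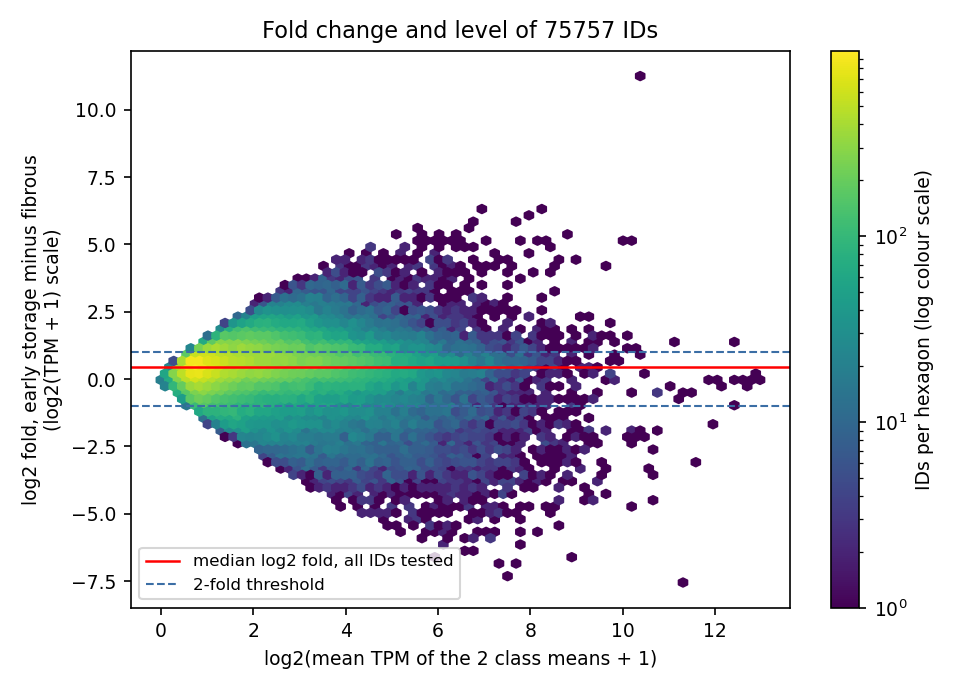
Log2 fold of early storage minus fibrous roots for each ID tested (vertical, log2(TPM + 1) scale) against its level (horizontal, log2 scale), with the number of IDs per hexagon in colour on a log scale. The red line marks the median fold of 0.44 and the dashed lines the 2-fold threshold. The cloud is shifted upward as a whole and extends further below it at high levels.

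The share of calls that were higher varied with the level of the transcript and was largest between 1 and 10 TPM. Among IDs with a mean of 1 to 5 TPM over all 28 libraries, 3210 were higher and 2208 lower under all 3 scalings, so that 59.2% of these calls were higher. The share was 63.0% for means of 5 to 10 TPM, 46.8% for 10 to 50 TPM, 31.1% for 50 to 100 TPM and 28.5% for those of 100 TPM and above. In deposited TPM alone the shares of higher calls were larger, at 76.4%, 77.4%, 67.2%, 50.6% and 43.6% over the same bands from 1 TPM upward, so higher calls were the majority up to 100 TPM there. Of the 1343 IDs tested with 100 TPM and above, 141 were higher and 354 lower under all 3 scalings, against 293 and 379 in deposited TPM. Below 1 TPM 61 were higher and 396 lower under all 3 scalings, against 341 and 396 in deposited TPM. Under all 3 scalings 13.3% of the calls below 1 TPM were therefore higher, the smallest share of any band. In deposited TPM 5.31% of the IDs below 1 TPM were called, against 39.5% of those with 10 to 50 TPM.

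Many of the most abundant messages of fibrous roots were lower in early storage roots. Of the 1000 IDs with the highest mean in fibrous roots, 554 were lower and 15 higher in early storage roots under all 3 scalings, where 8.29% of all IDs tested were lower and 9.29% higher, and together these 1000 held 24.7% of the TPM in early storage roots and 42.0% in fibrous roots. Of the 1000 highest in early storage roots, 176 were higher and 71 lower by the same rule, the last close to the share of lower IDs among all tested, and they held 32.8% in early storage and 31.1% in fibrous roots. The lists shared 449 IDs. Choosing IDs by their level in a class favours IDs that are higher in that class, so the counts of the lists are not tests. Of the 10 most abundant IDs of each class 8 were shared, and the other 2 of the fibrous list were called lower. Among the 100 most abundant 41 were shared. Of the 100 in fibrous roots 64 were called lower and 0 higher, and they held 10.5% of the TPM in early storage roots and 19.5% in fibrous roots.

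Of the 2 lists, the falling IDs held more of the library in fibrous roots and the rising IDs more in early storage roots. The 7036 higher IDs summed to 15.2% ± 1.64 of the TPM in early storage roots and 2.55% ± 0.380 in fibrous roots (SD, n = 8 each). The 6282 lower IDs summed to 7.02% ± 1.67 in early storage roots and 35.3% ± 0.980 in fibrous roots. The remaining IDs tested held 77.3% ± 1.27 in early storage and 61.7% ± 1.05 in fibrous roots, so the share given up by the falling IDs went to the unlisted IDs as well as to the rising ones. The unlisted IDs include higher calls in deposited TPM that were not called under all 3 scalings. The lists were chosen by comparing the early storage and fibrous libraries, and the sums are therefore descriptions. Among early storage libraries, S16 replicate 3 kept the largest share in the falling IDs, at 10.7%, with the others between 5.21% and 7.27%, and it had the smallest share in the rising IDs, at 12.7%.

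The libraries outside the comparison largely followed the order of diameter. These libraries also entered the rescaling and the estimate of the spread that the lists rest on. In S10 the rising IDs held 5.74%, 8.13%, 4.44% and 5.85% of the TPM, in S12 9.21%, 8.95%, 12.8% and 11.1%, and in S20 24.7%, 19.2%, 18.0% and 22.4%. The pencil libraries lay between the fibrous and the early storage libraries, apart from S12 replicate 4, which at 12.8% was just above the lowest early storage library, at 12.7%. The falling IDs held 23.3%, 16.6%, 27.6% and 23.6% in S10, 14.8%, 19.3%, 11.1% and 13.5% in S12, and 4.05%, 3.27%, 3.63% and 3.54% in S20. Here every pencil library lay between the fibrous and the early storage libraries, and every S20 library lay below the early storage ones. The pencil stages overlapped, since S10 replicate 2, at 16.6%, lay below S12 replicate 2, at 19.3%.

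**Figure D3:**
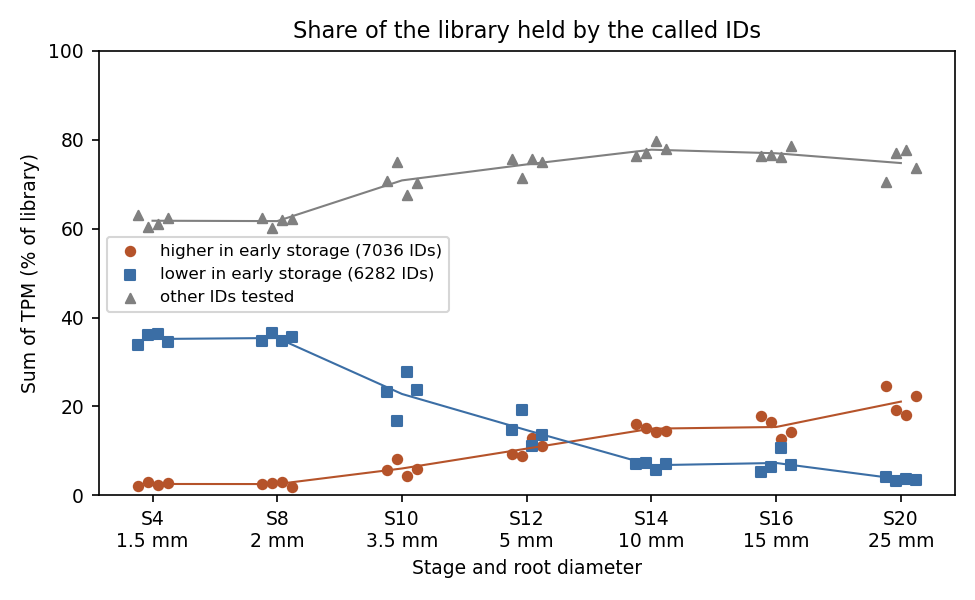
Percent of each library's TPM in the 7036 IDs higher in early storage roots, the 6282 IDs lower in them and the other IDs tested, by stage and root diameter (points are libraries, lines join stage means). The falling IDs stand at 5.21% to 10.7% in early storage and 33.8% to 36.5% in fibrous libraries, and the curves of the rising and falling IDs cross between S12 and S14.

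By S12 the median changed ID had covered over 50% of its distance, and S14 and S16 stood close together. With the fibrous mean as 0% and the early storage mean as 100% on the log2 scale, the rising IDs had a median of 32.3% at S10 (quartiles 14.1% and 52.6%) and 66.6% at S12 (45.8% and 86.6%). S14 stood at 99.7%, S16 at 100.3% and the thickest roots at 113%. For the falling IDs the pencil stages gave medians of 39.3% (S10) and 69.0% (S12), the early storage stages 104% (S14) and 95.6% (S16), and the thickest roots 124%. Of the rising IDs, 1943 (27.6%) were at least 50% of the way at S10, 3141 (44.6%) first at S12, and 1952 (27.7%) at neither. Of the falling IDs, 2265 (36.1%), 2604 (41.5%) and 1413 (22.5%) fell in these classes. The positions use the libraries that chose the IDs as end points and are descriptions.

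In the thickest roots most listed IDs lay past their early storage level, and some lay nearer to the fibrous one. At S20 4543 of the rising IDs were past their early storage mean, 2013 (28.6%) stood between 50% and 100%, 427 (6.07%) between 0% and 50%, and 53 (0.753%) below the fibrous mean. Of the falling IDs, 5296 were past their early storage mean at S20, 854 (13.6%) stood between 50% and 100%, 113 (1.80%) between 0% and 50%, and 19 (0.302%) above the fibrous mean.

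The folds were also taken in separate libraries. S14 against S4 and S16 against S8 share no library. S14 against S4 gave 22290 calls (29.4%), 16059 higher (21.2%) and 6231 lower (8.22%). S16 against S8 gave 20587 (27.2%), 14716 higher (19.4%) and 5871 lower (7.75%) (limma). The higher calls had 10042 IDs in common, 62.5% of those of S14 against S4 and 68.2% of those of S16 against S8. The lower calls had 4348 in common, 69.8% and 74.1% of the lists in the same order. There were 12 IDs called in opposite directions. Across the 75757 IDs, which are not independent, the folds of the 2 comparisons had a Pearson r of 0.815 and a Spearman rho of 0.751. The libraries were processed alike, so the correlation also holds whatever they share in scaling. All calls between pairs of stages used the same estimate of the spread of an ID, from all 28 libraries. The counts of shared calls are therefore not independent replications.

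The other division of the same 16 libraries gave a similar picture. It reuses these libraries and is not independent of the first. S14 against S8 had 20861 calls (27.5%), 14651 higher (19.3%) and 6210 lower (8.2%). S16 against S4 had 21792 (28.8%), 16141 higher (21.3%) and 5651 lower (7.46%). They had 9974 higher and 4284 lower IDs in common, with 1 ID called in opposite directions and a Pearson r of 0.823. A test of the difference between the folds of S14 against S4 and S16 against S8 called 0 IDs (limma). It had 5945 at an unadjusted p under 0.05, more than chance gives on average at this p among all IDs tested. No other tool was run on this difference.

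**Figure D4:**
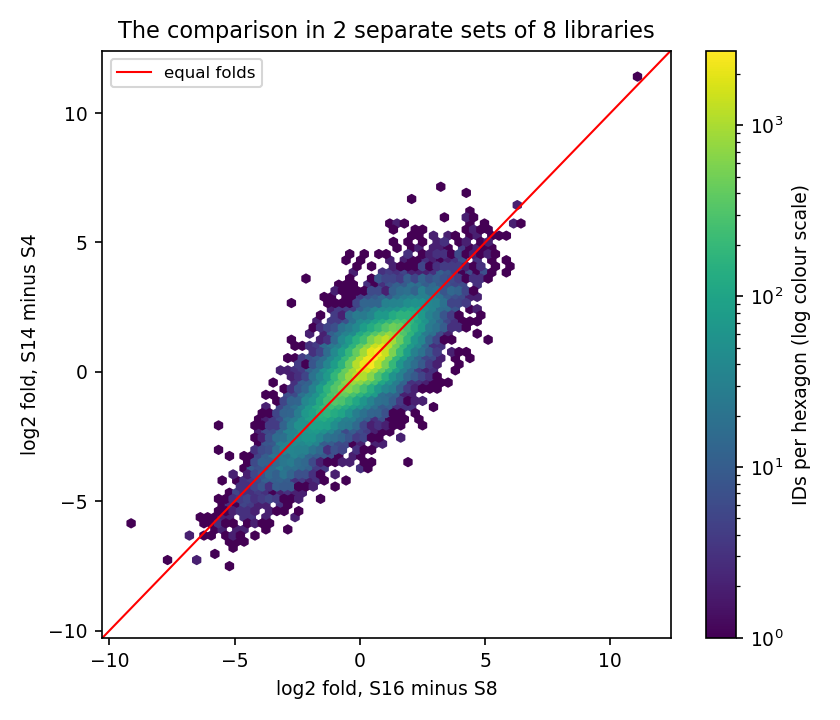
Log2 fold of S14 minus S4 (vertical) against S16 minus S8 (horizontal) for each ID tested, on the log2(TPM + 1) scale, with the number of IDs per hexagon in colour on a log scale and the line of equal folds in red. The cloud follows the line, with a Pearson r of 0.815 over IDs from libraries that the 2 comparisons do not share.

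Within the classes few differences were called. S16 differed from S14 in 101 IDs (0.133%; limma), 34 higher (0.0449%) and 67 lower (0.0884%) at S16, with 8543 IDs at an unadjusted p under 0.05. S8 differed from S4 in 1 ID (0.00132%), with 3034 at an unadjusted p under 0.05. Among all IDs tested, chance gives on average fewer than the 8543 and more than the 3034 at this p. Complete separation of the 8 early storage from the 8 fibrous libraries was found upward for 12668 IDs (16.7%) and downward for 3110 (4.11%). After median-of-ratios scaling these counts were 5367 and 6466, so the larger number of rising IDs did not hold there. After quantile normalization they were 6738 and 5371, with rising IDs still the more frequent. Of the IDs called under all 3 scalings, 4862 of the higher and 2829 of the lower were without overlap in deposited TPM. These last counts used no rescaled values.

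A few transcripts were near absence in every library of a class. There were 260 IDs under 0.5 TPM in all 8 fibrous libraries with at least 1 TPM in all 8 early storage libraries (0.261% of 99697), with a median of 3.35 TPM in early storage roots. Of these, 236 also had at least 1 TPM in all 4 S20 libraries, and 7 in all 8 pencil libraries. The reverse pattern was met by 91 IDs (0.0913%), with a median of 4.47 TPM in fibrous roots, and 80 of them were under 0.5 TPM in all S20 libraries. With depth unknown, a low value need not mean absence.

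A pair of rising and a pair of falling IDs carried the largest changes in TPM among 5801 IDs. The 5801 were called under all 3 scalings, did not overlap in deposited TPM and were above 0 in all 16 libraries. MSTRG.48169 had 2973, 2278, 2542 and 1941 TPM at S14 and 2332, 2610, 2140 and 1734 TPM at S16, against 69.6, 61.6, 37.3 and 85.7 TPM at S4 and 142, 45.9, 152 and 36.3 TPM at S8. Every early storage library was more than 10 times the highest fibrous library, and the S14 and S16 values overlapped. It averaged 2319 ± 393 TPM in early storage and 78.9 ± 45.5 TPM in fibrous roots (SD, n = 8 each), and limma gave a log2 difference of 5.04 with an SE of 0.35 (adjusted p = 4.56e-11). An MSTRG ID that did not meet the last condition, with 0 TPM listed for each of the 8 fibrous libraries, averaged 2497 TPM in early storage roots. In the order of mean level MSTRG.48169 was the 15th ID in early storage roots and the 1919th in fibrous roots.

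G12888_TU21121 had 2669, 2036, 2324 and 1779 TPM at S14 and 1800, 2349, 1835 and 1543 TPM at S16, against 82.6, 57.2, 20.8 and 60.3 TPM at S4 and 129, 42.0, 123 and 31.4 TPM at S8. Its log2 fold was 5.09 (SE 0.37, limma adjusted p = 9.15e-11). It followed MSTRG.48169 from library to library, at 0.772 to 0.917 of its level in early storage roots and 0.558 to 1.19 of it in fibrous roots. Near-identical copies are common in a hexaploid, and how reads were divided between this pair of IDs is uncertain, so they may not be separate observations.

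Both rising IDs were highest at S14 and S16 and lower again in the thickest roots. Choosing them by their difference at S14 and S16 favours IDs that are highest there. Of all 7036 rising IDs, 4543 were past their early storage mean at S20. MSTRG.48169 averaged 637 ± 270 TPM at S10, 1602 ± 261 at S12 and 819 ± 496 at S20 (SD, n = 4 each), and its 4 S20 libraries, between 161 and 1361 TPM, all lay below the early storage libraries. G12888_TU21121 averaged 523 ± 254 TPM at S10, 1344 ± 330 at S12 and 727 ± 445 at S20.

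G2082_TU3470 fell. It had 1290, 1104, 768 and 480 TPM at S14 and 451, 637, 509 and 558 TPM at S16, against 7701, 3796, 5526 and 6570 TPM at S4 and 3014, 5783, 4281 and 6685 TPM at S8. The early storage mean was 725 ± 312 TPM and the fibrous mean 5419 ± 1603 TPM (SD, n = 8 each), and limma gave a log2 difference of -2.94 with an SE of 0.33 (adjusted p = 7.31e-08). In pencil roots it was still at 4264 ± 368 TPM (S10) and 3153 ± 928 TPM (S12), and at S20 at 72.2 ± 45.0 TPM (SD, n = 4 each), so its S20 libraries lay below all earlier ones.

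G25944_TU42573 fell less. It had 4571, 3981, 1496 and 2292 TPM at S14 and 1229, 1337, 1575 and 704 TPM at S16, against 9141, 5059, 5635 and 6594 TPM at S4 and 5142, 6018, 4823 and 7152 TPM at S8. Its highest early storage value, 4571 TPM, was close to its lowest fibrous value, 4823 TPM. The log2 fold was -1.75 (SE 0.21, limma adjusted p = 2.55e-07), and it was -1.20 (SE 0.30, adjusted p = 0.00256) for S14 against S4 and -2.30 (SE 0.30, adjusted p = 2.48e-06) for S16 against S8, with no call on the difference of these folds (limma adjusted p = 0.522). Pencil roots held it at 6082 ± 836 TPM (S10) and 5547 ± 1154 TPM (S12), both means within the range of the fibrous libraries, and S20 at 961 ± 241 TPM (SD, n = 4 each). By mean level it was the 16th ID in early storage and the 7th in fibrous roots.

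**Figure D5:**
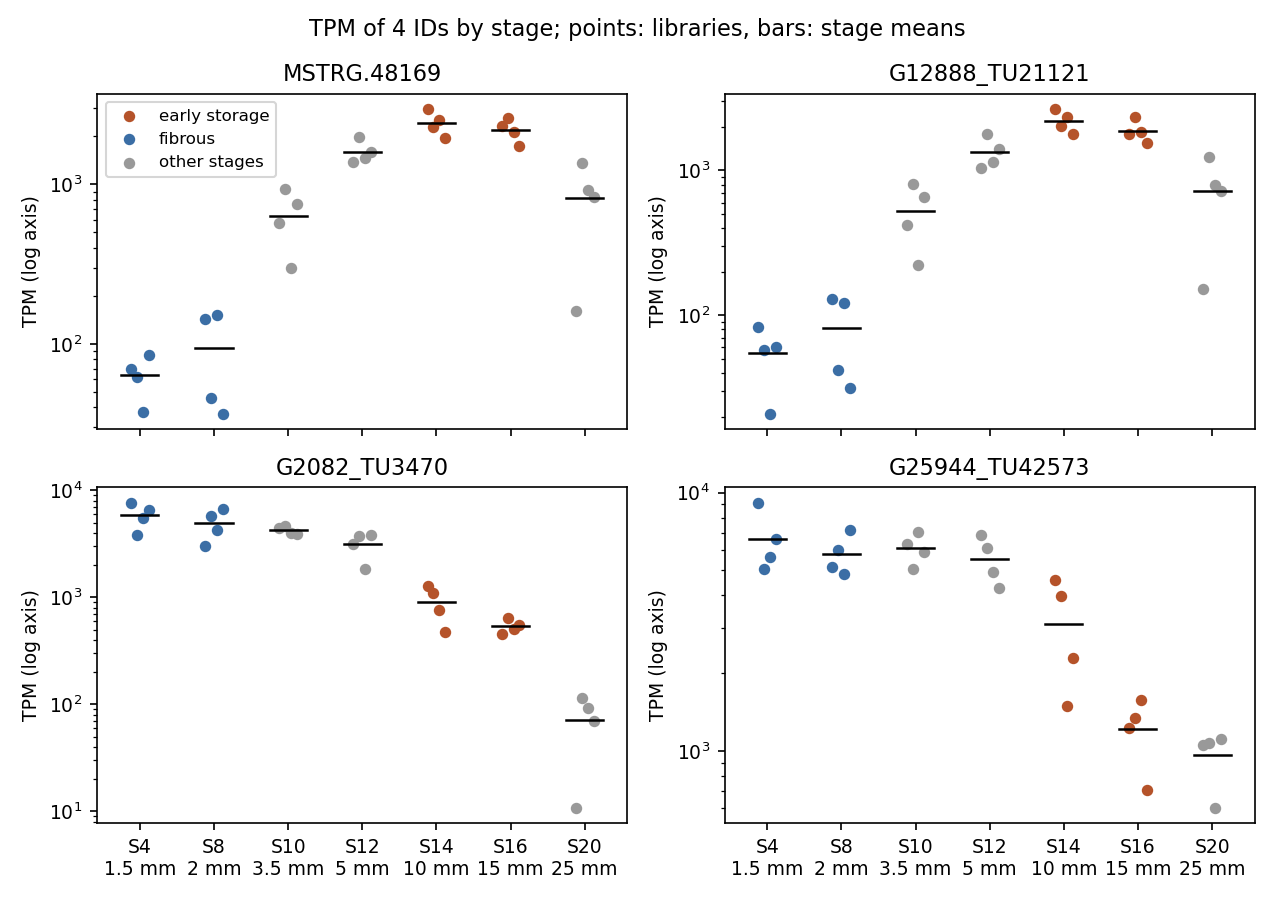
TPM of 4 IDs in each library by stage and root diameter (log axis, points are libraries, black bars stage means, early storage and fibrous libraries in colour). MSTRG.48169 and G12888_TU21121 peak at S14 and S16 and drop at S20, while G2082_TU3470 and G25944_TU42573 fall mainly after S12 and have their lowest stage means at S20.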

How the data were processed

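The authors deposited a table of TPM values with 1 column per library, and every column summed to 1000000 within rounding. TopHat2 2.0.0 and RSEM 1.3.1 are named, per the submitters' processing notes, and their roles, the genome build and the annotation are not given in the sources used here. The analysis took the log2(TPM + 1) of every ID that reached 1 TPM in 4 or more of the 28 libraries, a scale that shrinks folds at low levels. A linear model with 7 stage means and a trended prior was fitted in limma 3.58.1 (R 4.3.3), and the mean of S14 and S16 was contrasted with that of S4 and S8. p-values were Benjamini-Hochberg adjusted over 75757 IDs. Library measures were tested by two-sided exact permutation (Python 3.11.15, NumPy 2.4.6, pandas 2.3.3). Plots used Matplotlib 3.10.9.

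No 2 of the 16 libraries held the same values (highest r 0.923). The named IDs were those with the largest difference in mean TPM, 2 in each direction, under the conditions given with them. The IDs of a table without gene names allow no lists by function. The comparison, the rules and the alternatives were chosen with earlier results of these data known, and the alternatives for 8-fold changes were added after seeing the data. Simulated data tested the fit. With 0 changes placed, 0 IDs of 75757 were called. Changes were then placed in S14 and S16, only in IDs with a mean of at least 5 TPM. The contrast recovered 54 of 67 at a log2 fold of 1.5, 61 of 67 at 2 and 64 of 66 at 3, with 2 false calls. The simulated noise was independent between IDs and libraries, with no shift common to all IDs and far fewer changes than were called in the data. These rates therefore do not cover IDs of lower level or the effect of scaling.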

Additional observations from a re-analysis of the deposited data

Results flagged for a closer look

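The 2 classes of 8 libraries were searched for a library apart from the others in 5 library measures and 4 IDs, 18 groups in all, of which chance sets about 1 in 20 apart. There were 3 such groups. The library of S14 replicate 5 had 12.6% of its TPM in its 10 most abundant IDs, against 3.41% to 5.93% in the other early storage libraries, and 39.9% in its 1000 most abundant, against 31.3% to 34.3%. Its most abundant ID alone held 1.90%, against 0.322% to 0.774% in the other early storage libraries and 0.221% to 1.64% in fibrous libraries. The library of S4 replicate 1 lay 0.752 from its stage mean, against 0.457 to 0.554 in the other fibrous libraries.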

How the results depend on the processing

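Counts of calls depended on the pseudocount and the fold threshold. With a pseudocount of 5 there were 7872 calls (4542 higher, 3330 lower) and 8377, 7983, 8112 and 8406 for S14 against S4, S16 against S8, S14 against S8 and S16 against S4. With 0.1 there were 33044, 24985 of them higher. With no fold threshold there were 44470 (34133 and 10337), and 34218, 32490, 33043 and 33518 for the stage pairs. Median-of-ratios scaling gave 7377 higher and 9951 lower IDs, and without overlap 5367 and 6466. Quantile normalization gave 8491 higher, and without overlap 6738 and 5371. The median log2 fold was 0.70 with a pseudocount of 0.1, 0.19 with 5, 0.28 without the filter, 0.58 with a filter of 5 TPM, 0.079 with median-of-ratios and 0.13 with quantile values. The share of the 100 most abundant IDs differed by -4.92 percentage points (exact permutation, adjusted p = 0.0837), a lost call beside the 1000 most abundant. The distance from the stage mean differed by -0.0886 after median-of-ratios scaling (exact permutation, adjusted p = 0.00272), and by 0.00895, reversed, without S4 replicate 1. In each case the cause was not tested. With 1 library left out in turn, the calls ran from 21327 to 22684, the higher from 14777 to 16411, the lower from 6060 to 6591 and the distance from -0.0332 to 0.00895. The 4 named IDs kept their direction and call under each alternative run, which their choice made likely. TPM keeps no depth, so what depth limits is unknown.

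The values showed little sign of a pairing of libraries by the replicate numbers of the labels. Whether same-numbered roots shared an origin was not tested. Same-numbered libraries of different stages had deviations correlated at -0.157 to 0.192 (19 pairs, median -0.0188), and in 9 of 38 cases a library correlated best with its own number in another stage. With the number as a block there were 22068 calls, 15668 higher and 6400 lower. The labels also give a second numbering, in the titles, which was not used.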

Other observations

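Transcripts under the same G number seldom went opposite ways. Of 10816 G numbers with at least 2 IDs tested, 2883 had an ID called under all 3 scalings. In 387 every tested ID was higher and in 477 every tested ID was lower in early storage roots, in 1273 some were higher and the rest not called, and in 713 some were lower and the rest not called. A higher and a lower ID stood side by side in 33, which was 2.87% of the 1150 G numbers with at least 2 calls. How reads were divided between IDs of a G number was not tested.

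Both kinds of ID had more higher than lower calls in deposited TPM, with 22.6% higher and 8.01% lower among 57156 G IDs and 14.9% and 9.32% among 18601 MSTRG IDs. Under all 3 scalings the shares were 10.1% and 7.96% for G IDs and 6.77% and 9.31% for MSTRG IDs. The difference between the kinds was not tested. The MSTRG IDs had a lower median level, 1.55 TPM against 4.32 TPM for G IDs, and its part in these shares was not tested.

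For the IDs called lower under all 3 scalings, the median spread between replicates of a stage was 0.548 in early storage and 0.625 in fibrous roots (SD on the log2 scale), and for those called higher it was 0.488 and 0.429. Over all IDs tested it was 0.410 in early storage and 0.452 in fibrous roots. The levels of the lists also differed between the classes. The median ID called higher stood at 1.17 TPM at S4 and 8.12 TPM at S14, and the median ID called lower at 13.9 and 2.27 TPM. The part of level in these spreads was not tested.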
